A study of Mus musculus with 2 samples.

Results

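CpG-poor tiles are 1 Mb stretches of the mouse autosomes in which SCoTCH-seq covered between 1500 and 3500 CpG sites. Tiles were cut at multiples of 1 Mb, and a site counted as covered where it was listed in at least 1 of the 2 replicates. Of 2407 autosomal tiles with any covered site, 490 were CpG-poor. They made up 20.4% of the tiles and held 1434475 of 13754175 autosomal covered sites, or 10.4%. The comparison set was 1876 CpG-richer tiles with more than 3500 covered sites, and 41 tiles with under 1500 sites belonged to neither set. The rule used the number of sites and no CpG-state level.

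CpG dinucleotides are scarce over most of the mammalian genome, and the poorest regions are AT-rich, hold few genes and often replicate late in S phase. After replication a methylated CpG is hemimethylated until DNMT1, guided by UHRF1, methylates the new strand. Sites without close CpG neighbours and with A or T on both sides, known as solo WCGW sites, are the ones at which this maintenance is known to lag or fail most readily. TET enzymes oxidise methylcytosine to hydroxymethylcytosine, which is best known from gene bodies and enhancers of active chromatin.

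Both libraries came from E14 mESCs, a mouse embryonic stem cell line, grown on gelatin in serum with LIF, and replicate 1 and replicate 2 were different passages of that line; the labels and the methods give different serum contents. No other genotype, treatment or time point was in the data, so values were compared between parts of the genome within each library. SCoTCH-seq keeps the strands of a DNA fragment joined so that each call gives the state of a CpG on both of them, and the 9 states are grouped here as CC (unmodified), MC/CM (hemimethylated), MM (symmetrically methylated), HC/CH and HM/MH (hydroxymethylcytosine opposite an unmodified or a methylated cytosine) and HH. A level is the percentage of all calls with that state. The hemimethylated share is MC/CM divided by the sum of MC/CM and MM, which sets hemimethylation against the methylation present.

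The CpG-poor tiles were read 15742173 times at 1407486 sites in replicate 1 and 2928552 times at 464146 sites in replicate 2, with mean depths of 11.2 and 6.31 calls per site. Replicate 2 was thus shallower, and its values in single tiles are the less precise. For the tile with the median number of methylated calls, the hemimethylated share of 21.2% in replicate 1 had an exact Clopper-Pearson 95% interval of 20.7 to 21.7%. The corresponding tile in replicate 2 had a share of 20.4% with an interval of 19.3 to 21.5%. Intervals cover counting error only. The cell type label was checked at the promoters of 7 pluripotency genes. Pou5f1, Sox2, Zfp42, Tdgf1 and Dppa5a had CC levels of 96.8% to 100% in both replicates, Nanog had 80.1% and 86.2%, and Esrrb had 28.0% and 15%.

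The name CpG-poor was checked against the reference genome. The tiles had a median of 5066.5 reference CpGs per Mb of called bases, against 9159.5 in CpG-richer tiles, and 482 of 490 were below the median of all autosomal tiles, 8081 per Mb. Their median GC content was 37.7% against 42.8%, and a median of 44.0% of their bases was soft-masked as repeats against 29.7%. The tiles were thus poor in CpG by sequence, but coverage also entered. A median of 58.7% of their reference CpGs was covered, compared with 70.8% in CpG-richer tiles, and 79 tiles had under 50% covered. The other 8 tiles were above the autosomal median in sequence, among them poorly covered tiles and a short tile at a chromosome end. At least 1 transcription start site of a protein-coding gene was present in all but 196 of the 490 tiles, and 78 of the 1876 CpG-richer tiles had none.

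Tiles just inside and just outside the bounds of the rule had overlapping values. Near the upper bound, tiles with 3499 and 3500 covered sites had hemimethylated shares of 19.8% and 20.2% in replicate 1, and the tiles just past the bound had 19.9% and 18.5%. Near the lower bound, tiles with 1520 and 1537 sites had shares of 21.8% and 23.8%, and tiles with 1442 and 1479 sites had 22.3% and 17.6%.

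Windows of 100 bases on either side of a CpG show what the sites of these tiles look like in sequence. All are given on the plus strand of GRCm38.p6 (mm10) as held by RefSeq, with every CpG in capitals. The first 2 were centred on the site with the most calls in the replicate where it had fewer, among sites of each kind in unmasked sequence. One of them is a solo WCGW site, in intergenic sequence.
chr12:114123252-114123452: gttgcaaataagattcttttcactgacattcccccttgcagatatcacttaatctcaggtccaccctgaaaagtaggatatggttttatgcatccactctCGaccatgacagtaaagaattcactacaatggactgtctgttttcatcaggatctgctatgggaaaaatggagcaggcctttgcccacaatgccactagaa
Its only CpG was called MC/CM in 5 of 39 calls in replicate 1 and in 5 of 21 calls in replicate 2, and MM in 27 and 16 calls. A site of the opposite kind is a solo SCGS site, with G or C on both sides, also intergenic.
chr3:93803137-93803337: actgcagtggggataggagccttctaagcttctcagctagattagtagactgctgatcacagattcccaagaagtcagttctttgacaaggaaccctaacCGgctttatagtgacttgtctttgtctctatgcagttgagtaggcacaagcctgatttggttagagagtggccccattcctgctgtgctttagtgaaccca
Here MC/CM made up 13 of 54 calls in replicate 1 and 1 of 25 calls in replicate 2, so a single site says little at these depths. A crowded site has at least 3 other CpGs within 35 bases, and such sites were rare in CpG-poor tiles. There, 68.3% of covered sites had no other CpG within 35 bases and 3.05% were crowded, against 46.0% and 10.3% in CpG-richer tiles.

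The CpG-poor tiles were more methylated and more hemimethylated than CpG-richer tiles, and held less hydroxymethylcytosine. MM made up 59.3% of calls in CpG-poor tiles and 55.4% in CpG-richer tiles of replicate 1, and 63.9% and 59.1% in replicate 2. MC/CM made up 15.3% and 13.2% in replicate 1, and 16.5% and 14.4% in replicate 2. CC was lower, with 19.2% against 22.6% in replicate 1 and 16.2% against 19.8% in replicate 2. Each of these differences had the same direction in 19 of 19 autosomes of both replicates. A two-sided exact sign-flip permutation test over the autosomes gave p = 3.81e-06 in each replicate, the smallest value it can give, with a Benjamini-Hochberg adjusted p of 4.94e-06. The autosomes of a library are blocks of the genome and not replicates, so the test describes how regular the difference was along the genome. The levels themselves differed between the replicates, with SDs of 0.845 for MC/CM, 3.27 for MM and 2.12 for CC in CpG-poor tiles (n = 2). The difference between the sets moved less. It was 2.05 ± 0.0117 percentage points for MC/CM, 4.37 ± 0.618 for MM and -3.52 ± 0.185 for CC (mean ± SD, n = 2). Its size depended on the comparison set. Against the next class of tiles alone, with up to 5500 sites, the means were 0.397 for MC/CM and 0.867 for MM. For CC the mean was -0.00395 and did not pass the test. With the same mix of sequence contexts in both sets, the MC/CM mean was 0.576.

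Each state with hydroxymethylcytosine was lower in CpG-poor tiles. HC/CH was 2.38% of calls against 4.29% in CpG-richer tiles of replicate 1, and 1.86% against 3.86% in replicate 2. HM/MH was 3.45% against 4.08% in replicate 1 and 1.48% against 2.57% in replicate 2. HH was rare, with 0.386% against 0.465% and 0.0609% against 0.174%. All of these were lower in 19 of 19 autosomes of both replicates (exact sign-flip permutation test, adjusted p = 4.94e-06). The difference was -1.95 ± 0.0686 percentage points for HC/CH and -0.858 ± 0.329 for HM/MH (mean ± SD, n = 2), and against the next class alone it was -0.809, -0.413 and, for HH, -0.0389. HM/MH and HH are the states most exposed to miscalls: on synthetic duplexes read in the same libraries, 4.51% (replicate 1) and 0.467% (replicate 2) of calls at symmetrically methylated sites were HM/MH. With the levels corrected by such rates, HM/MH was 0.557% in CpG-poor and 1.402% in CpG-richer tiles of replicate 1 and 1.14% and 2.22% in replicate 2, and HH was 0 in both sets of tiles of replicate 1, and 0.0455% against 0.155% in replicate 2. Negative solutions were set to 0, so the 0 in replicate 1 is a floor and not a solved level. The corrected HH difference thus had no direction over all calls of replicate 1 and was not called. The tests over autosomes passed in both replicates (largest adjusted p = 0.0344, exact sign-flip permutation test). Corrected HC/CH in CpG-poor tiles was 1.77% and 1.73%, against 3.78% and 3.82%, so the replicates were closer than as called. The rates rest on few duplex sites, each taken to have the state most often called there. Of these sites, 2 were taken as symmetrically methylated. On methylated lambda DNA, HM/MH made up 3.88% and 0.340% of calls, so the corrected HM/MH levels are uncertain.

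**Figure D1:**
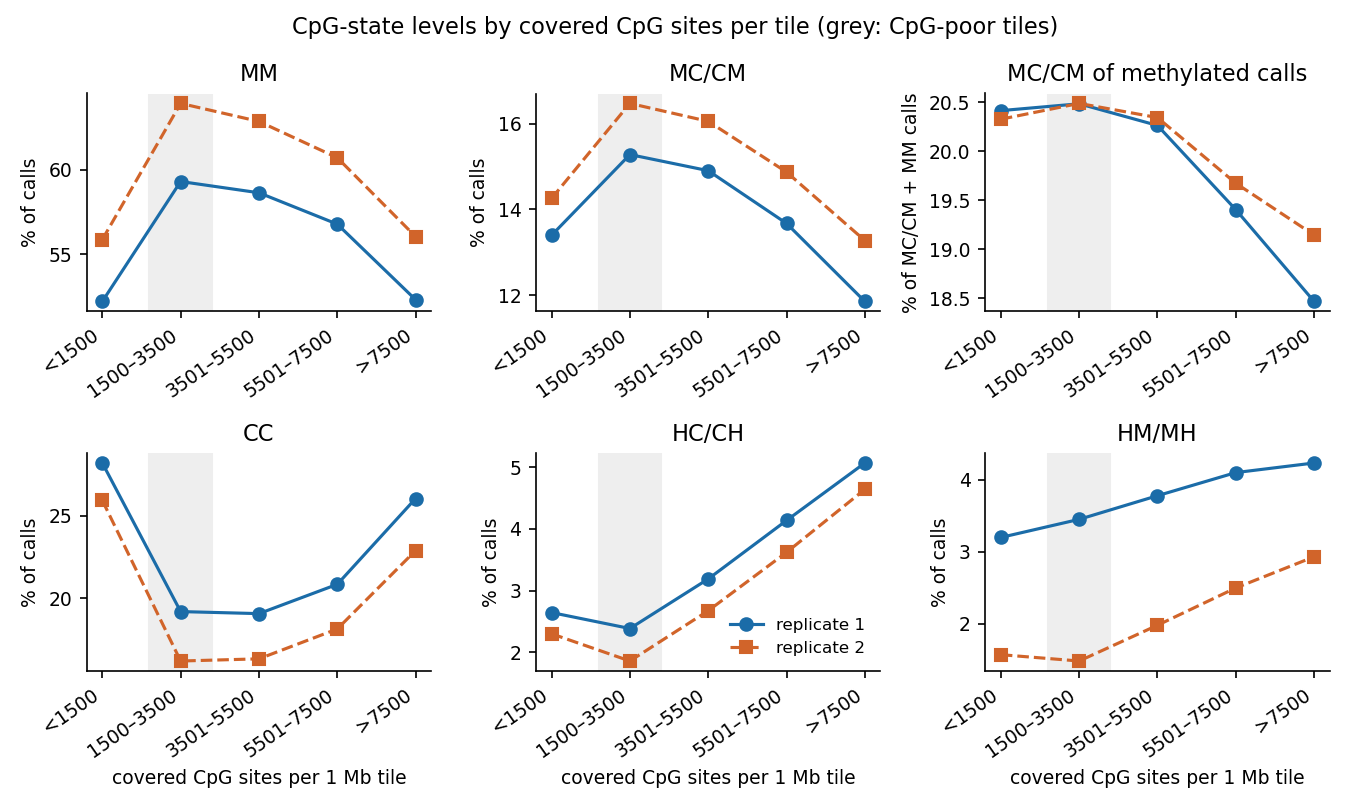
Levels of MM, MC/CM, CC, HC/CH and HM/MH as percentages of all calls, and MC/CM as a percentage of MC/CM and MM calls, in 5 classes of autosomal 1 Mb tiles by covered CpG sites (x axis), for replicate 1 (circles) and replicate 2 (squares); the y axes do not start at 0. CpG-poor tiles (grey) had the highest MM and MC/CM and the lowest HC/CH of the classes, and HC/CH climbed to 5.07% and 4.64% in tiles with over 7500 sites.

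HC/CH and MC/CM followed the number of covered sites across 4 of the 5 classes of tiles. HC/CH was 2.38%, 3.19%, 4.13% and 5.07% from CpG-poor tiles up to tiles with over 7500 sites in replicate 1, and 1.86%, 2.67%, 3.62% and 4.64% in replicate 2. MC/CM went the other way, from 15.3% to 11.9% and from 16.5% to 13.3%. Each step between these 4 classes had the same direction in both replicates. CC did not keep one direction: CpG-poor tiles and the next class, with over 3500 and up to 5500 sites, had 19.2% and 19.1% in replicate 1 and 16.2% and 16.3% in replicate 2. The difference in CC to that class averaged -0.00395 percentage points and did not pass the test (exact sign-flip permutation test, largest adjusted p = 0.229). The 41 tiles with under 1500 sites did not continue the trends, with CC at 28.2% and 25.9% and HC/CH at 2.64% and 2.30%, and a median of only 12.2% of their CpGs was covered.

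Most individual tiles took part in the shift. A tile was called above or below the autosomes where its level was above or below that of all autosomal calls in both replicates. HC/CH was below in 477 of 490 CpG-poor tiles, or 97.3%, against 59.2% of all 2397 tiles with at least 500 calls in each replicate. MC/CM was above in 428 (87.3%, against 60.8% of all tiles), and MM was above in 402 (82.0%, against 61.5%). The counts for hydroxymethylcytosine opposite methylcytosine were similar to those of HC/CH, with HM/MH below in 468 tiles (95.5%, against 48.4%). CC was below in 387 tiles (79.0%, against 62.9%), and HH in 435 (88.8%, against 46.6%). HC/CH was above the autosomal level in only 11 CpG-poor tiles (2.24%, against 35.3%), and HM/MH in 9 (1.84%, against 31.4%). The opposite calls were also the rarer ones for the methylation states. MC/CM was below in 40 tiles (8.16%, against 31.8%), MM was below in 77 (15.7%, against 34.3%), and CC was above in 92 (18.8%, against 32.9%).

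The hemimethylated share was higher in CpG-poor tiles by a small margin. It was 20.5% in both replicates, with 19.3% and 19.6% in CpG-richer tiles. The difference of 1.04 ± 0.243 percentage points (mean ± SD, n = 2) was positive in 19 of 19 autosomes of each replicate (exact sign-flip permutation test, adjusted p = 4.94e-06). The direction turned once both sets were given the same mix of sequence contexts, to a mean of -0.452, as described with the contexts. The share was above the autosomal level in 340 CpG-poor tiles (69.4%, against 45.6% of all tiles) and below it in 48 (9.80%, against 34.4%). Against the next class of tiles, up to 5500 sites, the difference was 0.183 percentage points and still passed the test (largest adjusted p = 0.0116, exact sign-flip permutation test).

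**Figure D2:**
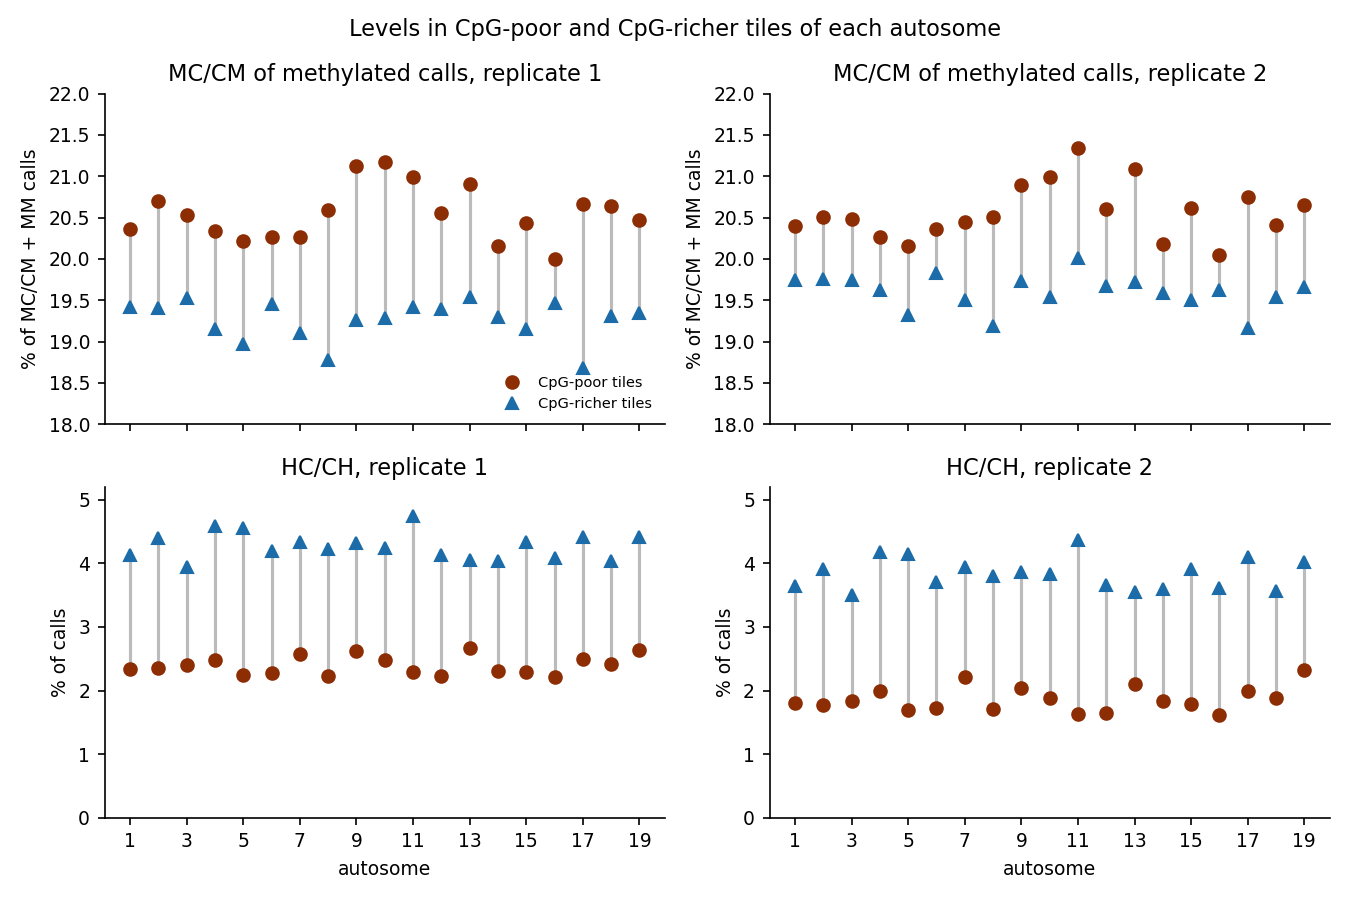
Hemimethylated share (top, percentage of MC/CM and MM calls, axis from 18 to 22) and HC/CH level (bottom, percentage of calls) in the CpG-poor (circles) and CpG-richer (triangles) tiles of each of 19 autosomes, with replicate 1 on the left and replicate 2 on the right; grey lines join the sets. On each autosome the CpG-poor tiles were higher in hemimethylated share and lower in HC/CH.

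Levels in these tiles varied between the autosomes. The hemimethylated share of the CpG-poor tiles ran from 20% on chromosome 16 to 21.2% on chromosome 10 in replicate 1, and from 20.05% on chromosome 16 to 21.3% on chromosome 11 in replicate 2. Chromosome 11 had 9 such tiles and chromosome 19 had 5, so their values rest on few tiles. HC/CH ran from 2.22% on chromosome 16 to 2.67% on chromosome 13 in replicate 1, and from 1.62% on chromosome 16 to 2.32% on chromosome 19 in replicate 2. CC was highest on chromosome 7, with 24.1% and 21.4%, where the MM level of 55.6% and 59.4% was the lowest. The lowest CC was on chromosome 10, with 16.4% and 13.1%.

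The hemimethylated share varied more with the sequence around a site than between the sets of tiles. Within CpG-poor tiles it was 21.9% in replicate 1 and 21.8% in replicate 2 at solo sites, which have no other CpG within 35 bases, and 11.6% and 12.8% at crowded sites. The difference averaged 9.66 ± 0.940 percentage points (mean ± SD, n = 2) and was positive on 19 of 19 autosomes in both replicates (adjusted p = 4.94e-06, exact sign-flip permutation test). With 1 neighbour the share was 17.8% and 17.7%, and with 2 it was 14.6% and 15.1%, so each added neighbour came with a lower share. The controls of known state did not share 1 order. On lambda DNA, which was added methylated, the share was 3.21% and 3.83% at 42 solo sites, 3.08% and 4.86% at sites with 2 neighbours and 3.88% and 6.98% at 2644 crowded sites. On unmethylated pUC19, MC/CM made up 1.30% and 3.48% of calls at its 3 solo sites and 0.233% and 0.362% at crowded sites. The part of miscalls in the values of the tiles was not tested.

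The bases beside the site mattered as well. At solo WCGW sites of CpG-poor tiles the share was 24.4% in replicate 1 and 24.0% in replicate 2, at solo sites with mixed flanks it was 20.8% and 20.7%, and at solo SCGS sites it was 17.6% and 17.6%. The difference between WCGW and SCGS was 6.60 ± 0.264 percentage points (mean ± SD, n = 2), with WCGW higher on 19 of 19 autosomes in both replicates (adjusted p = 4.94e-06, exact sign-flip permutation test). MM and CC moved with it. MM was 54.3% and 60.1% at solo WCGW sites and 65.0% and 68.4% at solo SCGS sites, and CC was 22.5% and 18.1% against 15.3% and 13.3%. Whether the assay reads sites with each flank equally well was not tested.

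At sites of the same kind, CpG-poor tiles did not have the higher hemimethylated share. At solo WCGW sites it was 24.4% in CpG-poor and 24.4% in CpG-richer tiles of replicate 1, and 24.0% and 24.2% in replicate 2. The difference of -0.0887 and -0.168 percentage points was negative on 10 and 12 of 19 autosomes and did not pass the test (exact sign-flip permutation test, p = 0.942 and 0.413). Against the next class, up to 5500 sites, the share at these sites was lower in CpG-poor tiles by 0.360 percentage points, given as the mean of both replicates (largest adjusted p = 0.00703, exact sign-flip permutation test). At solo SCGS sites it was 17.6% against 17.7% and 17.6% against 18.1%, and at crowded sites 11.6% against 13.6% and 12.8% against 15%. The crowded sites thus had the wider gap, which was not tested.

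The sequence contexts differed in number between the sets. Solo WCGW sites made up 28.7% of the covered sites of CpG-poor tiles and 15.5% of those of CpG-richer tiles. When the CpG-poor tiles were given the mix of neighbours and flanks of the CpG-richer tiles, a calculation added after the data had been seen, their hemimethylated share became 18.96% and 19.02%, 0.309 and 0.595 percentage points below that of CpG-richer tiles. This reversed difference was negative on 14 and 18 of 19 autosomes (adjusted p = 0.00426 and 8.22e-06, exact sign-flip permutation test). The MC/CM difference shrank from 2.06 and 2.05 to 0.659 and 0.492 percentage points and was positive on 19 and 18 autosomes (adjusted p = 4.86e-06 and 8.22e-06, exact sign-flip permutation test). HC/CH stayed lower by 1.78 and 1.83 percentage points on 19 of 19 autosomes.

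**Figure D3:**
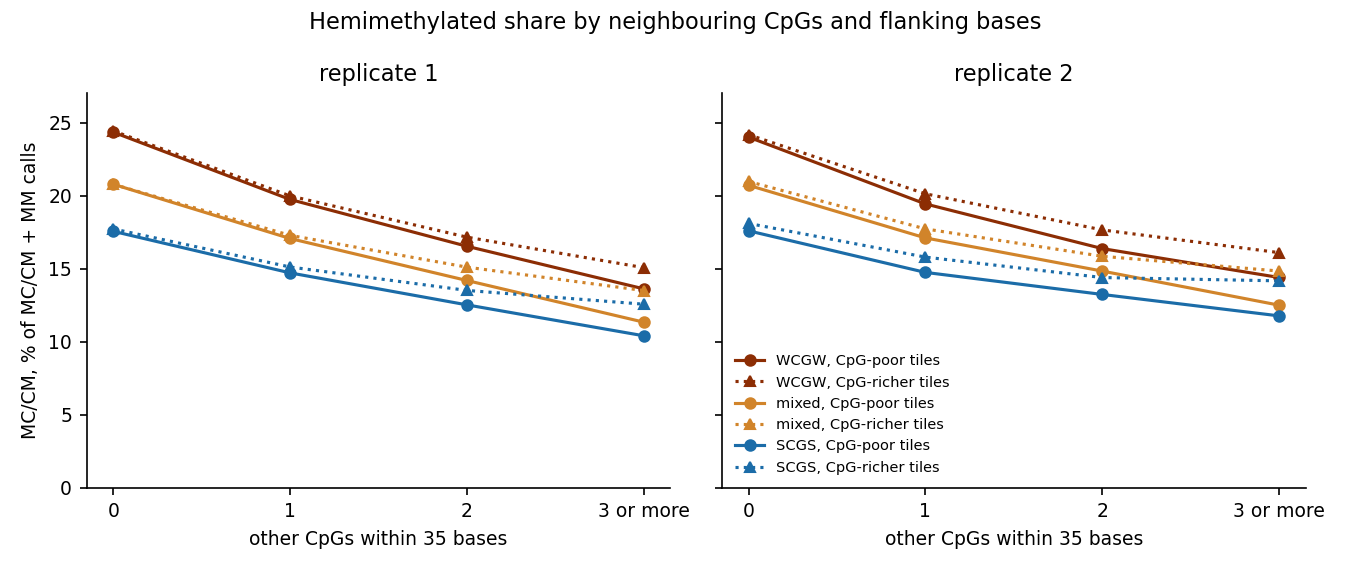
Hemimethylated share (percentage of MC/CM and MM calls, axis from 0) by the number of other CpGs within 35 bases and by the bases beside the CpG (WCGW, A or T on both sides; SCGS, G or C on both sides; mixed, 1 of each), in CpG-poor tiles (circles, solid lines) and CpG-richer tiles (triangles, dotted lines) of replicate 1 and replicate 2. The share fell from 24.4% and 24.0% at solo WCGW sites to 10.4% and 11.8% at crowded SCGS sites of CpG-poor tiles, and at solo sites the sets nearly coincide.

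HC/CH was lower in CpG-poor tiles at solo WCGW sites, in intergenic DNA and in gene bodies. At solo WCGW sites it was 2.30% against 3.91% in replicate 1 and 1.63% against 3.29% in replicate 2. In intergenic DNA it was 2.25% against 3.98% and 1.70% against 3.58%, and in gene bodies of protein-coding genes 2.77% against 4.69% and 2.28% against 4.19%. HM/MH was lower at the same 3 kinds of sites, in gene bodies with 3.55% against 4.29% and 1.69% against 2.76%. All of these comparisons, added after the data had been seen, had the same direction on 19 of 19 autosomes (adjusted p = 4.94e-06, exact sign-flip permutation test). Against the next class of tiles alone the mean HC/CH difference shrank from -1.63 to -0.700 percentage points at solo WCGW sites and from -1.91 to -0.709 in gene bodies, and that of HM/MH in gene bodies from -0.909 to -0.419. At promoters, which were not tested for these states, HC/CH was 2.36% in CpG-poor and 2.40% in CpG-richer tiles of replicate 1 and 2.21% and 2.56% in replicate 2. HM/MH as called was 2.19% against 1.44% and 1.34% against 1.26%, where MM, the state miscalled as HM/MH, was 31.4% against 14.1% and 32.6% against 15.6%, and the part of miscalls was not tested.

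Genes took a smaller part of these tiles than of the rest. Intergenic sites made up 71.2% of the covered sites and gene bodies 20.8%, against 37.4% and 51.2% in CpG-richer tiles. Within CpG-poor tiles, gene bodies had more HC/CH than intergenic DNA. The differences of 0.519 and 0.581 percentage points were positive on each of the 19 autosomes (adjusted p = 4.94e-06, exact sign-flip permutation test). Their mean fell to 0.265 in tiles with at least 60% of CpGs covered and to 0.302 in as many tiles with the fewest reference CpGs. MM was lower in gene bodies, with 57.9% against 60.3% and 62.6% against 65.1%, on 18 of 19 autosomes (adjusted p = 9.32e-06, exact sign-flip permutation test), and the mean difference of -2.38 became -1.18 in the tiles with the fewest reference CpGs. For HM/MH the difference of 0.101 and 0.282 percentage points was positive on 16 and 17 of 19 autosomes and passed the test. In tiles with at least 60% of their CpGs covered, its mean of 0.0581 did not pass (largest adjusted p = 0.535, exact sign-flip permutation test). In the tiles with the fewest reference CpGs the mean was 0.115. MC/CM was 15.3% against 15.4% and 16.4% against 16.7%, a difference that did not pass (exact sign-flip permutation test, p = 0.694 and 0.333).

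In intergenic DNA alone, the hemimethylated share was 20.4% in CpG-poor tiles of both replicates against 19.5% and 19.97% in CpG-richer tiles. It was higher on 19 of 19 autosomes in each (adjusted p = 4.94e-06, exact sign-flip permutation test). Compared with the next class only, up to 5500 sites, the difference turned to -0.0178 percentage points and did not pass the test (largest adjusted p = 0.556, exact sign-flip permutation test). The mean HC/CH difference in intergenic DNA shrank from -1.80 to -0.717 percentage points against those tiles and still passed (largest adjusted p = 7.99e-06, exact sign-flip permutation test).

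HC/CH differed between tiles by their number of protein-coding start sites. The 196 CpG-poor tiles with no protein-coding transcription start site had HC/CH levels of 2.15% and 1.56%, and the 78 CpG-richer tiles without one had 2.94% and 2.39%. With 4 to 10 start sites the levels were 2.93% and 2.55% in 61 CpG-poor tiles, and 4.23% and 3.73% in 729 CpG-richer tiles. With over 10 start sites, 55 CpG-poor tiles had 2.68% and 2.25%, and 603 CpG-richer tiles had 4.96% and 4.55%. These values are a description of the tiles and were not tested.

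**Figure D4:**
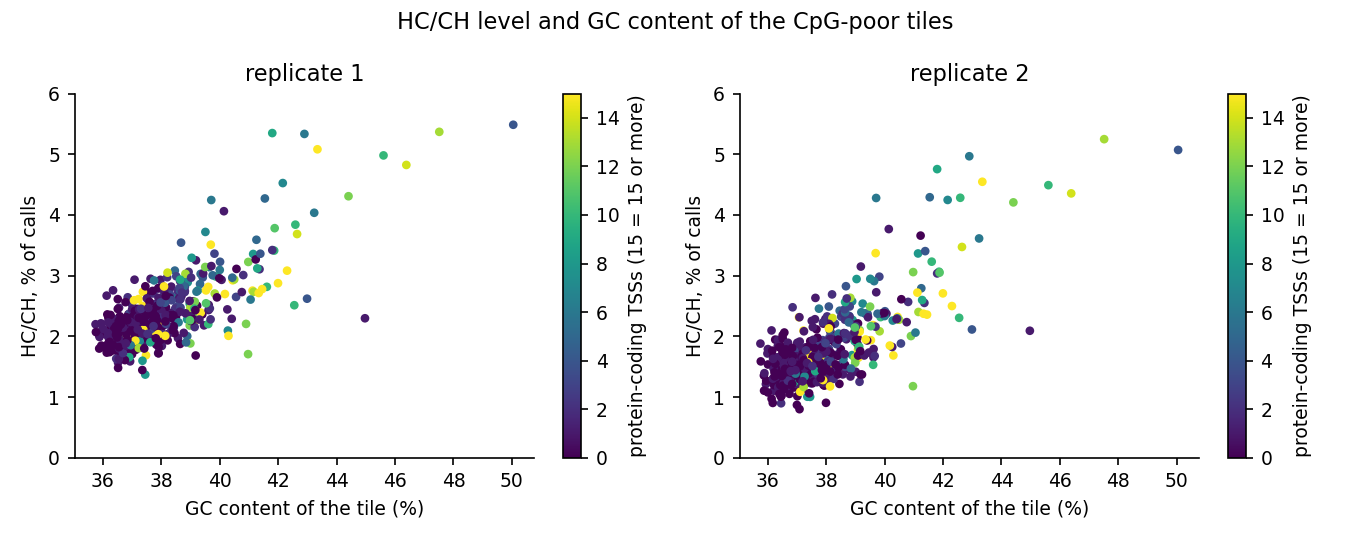
HC/CH level (percentage of calls, axis from 0) of each of 490 CpG-poor tiles against the GC content of the tile, coloured by its number of protein-coding transcription start sites, for replicate 1 and replicate 2. The tiles below 40% GC form a dense group, mostly under 3% HC/CH, and the few tiles above it reach up to 5.49% and 5.25%.

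Among the CpG-poor tiles, HC/CH varied with base composition. Its Spearman correlation with GC content over the 490 tiles was 0.63 in replicate 1 and 0.60 in replicate 2, and with the number of protein-coding start sites 0.42 and 0.43. The tiles share the library and its depth, so the coefficients are descriptive. The hemimethylated share had only weak relations to GC content, 0.18 and 0.17, and to the soft-masked part of the tile, 0.15 and 0.21. Within the tiles, the share was 19.7% and 19.97% at soft-masked sites and 20.7% and 20.6% at unmasked sites.

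The tiles varied in each state. The hemimethylated share ranged from 16.0% to 24.5% over the 490 tiles in replicate 1, with a median of 20.4%, and from 16.1% to 24.4% in replicate 2, with a median of 20.4%. HC/CH ranged from 1.37% to 5.49% and from 0.801% to 5.25%, and MM from 40.8% to 66.1% and from 43.5% to 71.3%. The order of the tiles was largely shared between the replicates. Spearman's rho between them was 0.73 for the hemimethylated share, 0.84 for HC/CH, 0.86 for MC/CM, 0.95 for MM and 0.97 for CC (n = 490 tiles, which share reference sequence and mappability). It was lower for HM/MH at 0.60 and for HH at 0.23, and the reason was not tested.

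**Figure D5:**
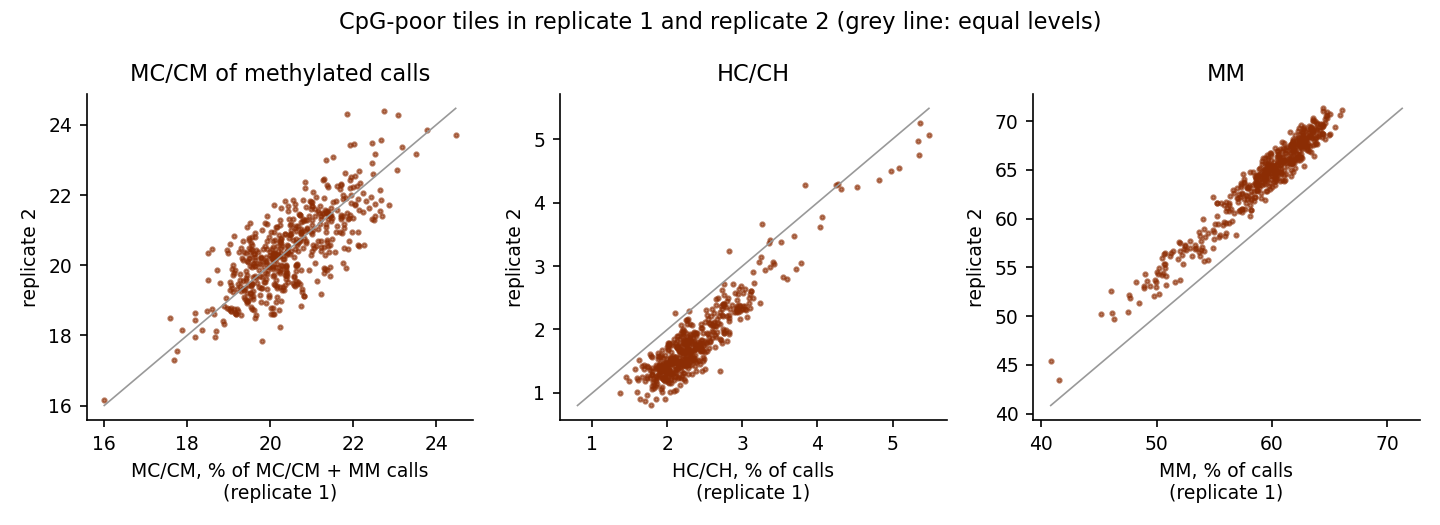
Levels of each of 490 CpG-poor tiles in replicate 1 (x axis) and replicate 2 (y axis) for the hemimethylated share (percentage of MC/CM and MM calls), HC/CH and MM (percentages of calls); points are tiles, the grey line marks equal levels, and axes do not start at 0. The order of the tiles is largely shared between the replicates, while MM is higher in replicate 2 throughout and HC/CH is mostly lower.

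The tiles at the ends of the range of hemimethylated share were not of 1 kind. The highest, chr10:130000000-130694993, had 23.8% in both replicates, with exact 95% intervals of 23.1 to 24.5% and 22.3 to 25.4%. It holds olfactory receptor genes Olfr820 to Olfr827, pheromone receptor genes Vmn2r84 to Vmn2r87, and Neurod4, which encodes a neurogenic transcription factor. Next was chr14:124000000-124902244 with 24.5% and 23.7%, where the only protein-coding start site is that of Fgf14, an intracellular member of the fibroblast growth factor family. A tile at chr17:93000000-93999999 with Adcyap1, which encodes the neuropeptide PACAP, had 23.2% and 23.4%. The others were chr17:22000000-22999999, a cluster of Zfp zinc finger and Vmn2r genes, with 23.5% and 23.2%, and chr12:119000000-119999999 with Itgb8, Macc1 and Tmem196, with 23.1% and 24.3%. Between 48.2% and 61.2% of the reference CpGs of these 5 tiles were covered. The chromosome 10 and chromosome 14 tiles are short tiles at chromosome ends, as is the lowest tile.

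Most of the 5 lowest tiles were CpG-poor only in a limited sense. The lowest, chr4:156000000-156508116 with 16.0% and 16.1%, has 47.5% GC, and its HC/CH of 5.37% and 5.25% was among the highest. Its exact 95% intervals were 15.4 to 16.6% and 15.02 to 17.3%. At chr17:6000000-6999999 the share was 17.8% and 17.6% with 25.0% of 13646 reference CpGs covered, and at chr12:20000000-20999999 it was 17.7% and 17.3% with 17.5% of 9136 covered. At chr14:109000000-109999999, with 4720 reference CpGs and no protein-coding start site, it was 17.9% and 18.2%. The last, chr7:11000000-11999999, had 18.2% and 17.96% and holds the Zscan4 genes, known for their bursts of expression in mESCs, beside Vmn1r pheromone receptor genes. Its 6972 reference CpGs were above the upper quartile of the CpG-poor tiles, 5528 per Mb, and 34.1% of them were covered. Its MM level was 66.1% and 71.1%.

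Sequence from the highest and the lowest tile is shown for the best covered site of each. The window from the highest tile is intergenic, and 171 of its bases are soft-masked.
chr10:130023705-130023905: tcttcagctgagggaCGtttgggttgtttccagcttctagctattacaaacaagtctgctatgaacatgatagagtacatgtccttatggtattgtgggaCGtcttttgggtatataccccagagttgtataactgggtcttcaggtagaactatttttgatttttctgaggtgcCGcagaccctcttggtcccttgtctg
Its central CpG, a solo WCGW site, was called MC/CM in 6 of 23 and 5 of 14 calls, and MM in 11 and 8. The window from the lowest tile lies in an intron of the antisense gene Gm16008.
chr4:156029226-156029426: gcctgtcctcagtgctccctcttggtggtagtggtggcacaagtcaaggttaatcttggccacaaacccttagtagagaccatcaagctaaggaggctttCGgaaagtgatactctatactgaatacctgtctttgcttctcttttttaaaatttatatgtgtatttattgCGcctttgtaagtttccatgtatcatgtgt
The central CpG, a solo site with mixed flanks, was called MC/CM in 0 of 15 and 1 of 16 calls and MM in 14 calls of each replicate. Its neighbour 3′ of it was called MC/CM in 6 of 15 calls in replicate 1 and was not covered in replicate 2.

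Neighbouring tiles were often CpG-poor together. The 490 tiles fell into 235 runs, of which 116 were tiles standing alone, and the other 374 tiles had at least 1 CpG-poor neighbour. The longest run reached 11 tiles and occurred at 2 places. At chr1:107000000-117999999 it spans the Serpinb cluster of protease inhibitors, the cadherin genes Cdh7 and Cdh19, and Cntnap5a, a neurexin-like gene, and its hemimethylated share was 19.9% and 20.2%. At chr15:14000000-24999999 it holds the cadherin genes Cdh9, Cdh10, Cdh12 and Cdh18 among only 5 protein-coding start sites, with a share of 20.3% and 20.4%. HC/CH in these runs was 2.04% and 1.55%, and 2.20% and 1.68%. Tiles in runs of at least 4 had HC/CH of 2.27% and 1.72%, and tiles alone had 2.64% and 2.14%. Their hemimethylated shares were nearly the same, with 20.4% and 20.4% against 20.5% and 20.6%.

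Several gene families, among them odorant, taste and natural killer cell receptors, had most of their members in the CpG-poor tiles. Of 20807 autosomal protein-coding genes, 1924 (9.25%) had at least 80% of their length in the tiles. By family prefix, 624 of 1128 Olfr genes (55.3%), the odorant receptors, lay there, as did 98 of 208 Vmn1r (47.1%) and 68 of 119 Vmn2r genes (57.1%), the pheromone receptors. The Tas2r bitter taste receptors followed with 24 of 35 genes (68.6%), the Klr lectin-like receptors of natural killer cells with 20 of 26 (76.9%), and the Prl prolactin family of the placenta with 20 of 25 (80%). These families sit in gene clusters, so a cluster and not a gene is the unit that falls inside or outside. Of the transcription factor families counted, 1 of 43 Fox genes and none of 39 Hox, 18 Sox or 15 Pou genes lay there. Also none of 112 Krt, 22 Mup, 22 Defa, 15 Taar or 11 Skint genes was in the tiles. Genes outside may lie in CpG-richer tiles or in the 41 tiles with under 1500 covered sites, which were not told apart here.

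Other families were divided. In the tiles were 27 of 102 genes with the prefix Cyp, 8 of 22 Ugt genes of glucuronidation, 20 of 60 Serpin genes and 14 of 42 Defb genes. Of neuronal adhesion genes, 6 of 13 with the prefix Cntn and 7 of 28 with Cdh were inside, as were 1 of 4 Lrrtm and 3 of 67 Pcdh genes. Of ion channel and neurotransmitter receptor families, 4 of 91 Kcn (4.40%), 2 of 20 Gri (10%) and 2 of 14 Gabr genes (14.3%) were inside, beside 9.25% of all genes. Zinc finger genes with the prefix Zfp had 24 of 388 (6.19%).

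The families also differed in state. Olfr genes inside the tiles had a hemimethylated share of 22.2% and 21.8%, Vmn1r genes 22.8% and 23.5%, and Vmn2r genes 22.4% and 21.7%, where all CpG-poor tiles had 20.5%. Such shares were not particular to these families. Defb genes had 24.5% and 28.6%, the latter with only 278 calls of any state in replicate 2. Kcn genes had 22.7% and 22.3%, and Gri genes 22.5% and 22.6%, on few genes. Cntn genes had 20.6% and 20.2%, and Cdh genes 20.3% and 20.1%. Tas2r genes had 19.6% and 22.7%, on few calls, and Klr genes 19.98% and 19.3%. In these receptor families HC/CH levels were below those of the tiles, with 2.24% and 1.44% for Olfr and 2.03% and 1.42% for Vmn2r. The Klr genes had the least methylation of the families with at least 10 genes inside, with CC at 33.5% and 33.9% and MM at 49.6% and 52.1%. Their HC/CH was 1.65% and 0.380%, the latter on 1843 calls of any state and thus few HC/CH calls. Near-identical copies are common in these clusters, and a part of reads assigned to the wrong copy in these values was not tested.

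The CpG-poor tiles hold some of the longest genes of the genome. Among 333 genes inside the tiles with at least 50 covered sites in each replicate, the longest was Cntnap2, a neurexin-like adhesion gene at chr6:45059357-47304213, with a hemimethylated share of 21.1% and 20.5%. The next were Lrp1b, an LDL receptor relative (20.04% and 19.1%), Fhit, a gene at a common fragile site (20.4% and 20.9%), and Naaladl2 (20.2% and 20.1%). Over the 10 longest genes the share in replicate 1 lay between 20.01% in Lrrc4c, a gene of synapse adhesion, and 21.96% in Sgcz. MM differed more: it was 64.0% and 69.8% in Naaladl2 and 47.9% and 51.2% in Sgcz, a sarcoglycan gene, with CC at 13.4% and 9.57% against 33.8% and 32.1%. HC/CH was between 1.86% in Sgcz and 2.84% in Fhit in replicate 1, on both sides of the 2.38% of all CpG-poor tiles.

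Shorter genes gave the extremes among the 333, some on few calls in replicate 2, such as 351 in Noc2l and 394 in Ppp6c. The highest hemimethylated shares were in Wls, which encodes a carrier of Wnt proteins (25.1% and 32.3%), Ppp6c, a phosphatase subunit (25.2% and 26.4%), Gad2, a GABA synthesis enzyme (24.9% and 25.7%), and Clvs2 (24.9% and 24.7%). Tchh, the trichohyalin gene of hair follicles, belonged to the same 5 with 40.0% and 25.0%, but CC made up 94.9% and 94.5% of its calls, so few methylated calls stand behind its share. The lowest shares were in Ezr (12.6% and 12.8%), which encodes ezrin, a linker of membrane and actin, and in Noc2l (13.5% and 9.26%), E2f8 (14.6% and 14.7%), Plekhn1 (15.3% and 12.8%) and AW146154 (15.7% and 14.4%). Ezr, Noc2l and Plekhn1 lie in the chromosome 17 and chromosome 4 tiles described above. All 5 were above the tiles' level of HC/CH, with 3.61% to 5.99% in replicate 1.

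HC/CH in single genes reached levels far above that of the tiles. The 5 highest were Sept11, a septin gene (7.69% and 6.51%), Hpn, the protease hepsin (7.25% and 10.0%), Best1, a chloride channel gene (7.24% and 6.70%), Gabbr1, a GABA-B receptor subunit (6.82% and 6.82%), and Resf1, which encodes a regulator of retroelement silencing (6.75% and 6.98%). Hpn and Best1 had only 359 and 373 calls in replicate 2. Among genes with at least 50 covered sites in each replicate, those in the tiles were lower as a group than those elsewhere. They were 333 of the 1924 genes inside the tiles, so the medians do not describe all of these. The median HC/CH of the 333 genes was 2.93% and 2.29%. It was 4.85% and 4.22% over 10787 genes with under 20% of their length in the tiles. The median hemimethylated share was 20.8% and 20.6% against 18.8% and 19.2%, and that of MC/CM 14.9% and 15.8% against 12.04% and 13.5%.

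Promoters of CpG-poor tiles were less often unmodified. Within 1 kb of protein-coding transcription start sites, CC made up 54.7% and 54.2% of calls in CpG-poor tiles and 77.97% and 75.7% in CpG-richer tiles. The difference of -22.4 ± 1.27 percentage points (mean ± SD, n = 2) was negative on 18 of 19 autosomes in each replicate (adjusted p = 1.36e-05 and 2.58e-05, exact sign-flip permutation test). Its mean was -17.0 against the next class of tiles alone, up to 5500 sites, and -17.7 with each tile weighted equally. Of 1969 promoters in the tiles, 470 had at least 10 covered sites in replicate 1 and 5 in replicate 2, and the others held too few sites to describe singly. Of the 470, 204 (43.4%) had CC above 80% in both replicates and 75 (16.0%) had CC below 20%. In CpG-richer tiles, 14139 of 18321 promoters had that many sites, and the corresponding shares of these were 54.2% and 9.25%. The filter thus kept a larger part of the promoters there, so the shares compare unlike selections. The hemimethylated share of what methylation the promoters had was 22.6% and 22.5% in CpG-poor tiles and 21.5% and 22.9% in CpG-richer tiles, so the replicates differed in direction.

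Sites at which MC/CM reached 50% of calls were few. Among 17462 sites of the tiles with at least 10 calls in both replicates, 163 (0.933%) had MC/CM in at least 50% of calls in replicate 1 and 543 (3.11%) in replicate 2. The lists shared 7 sites, or 4.29% of the replicate 1 list and 1.29% of the replicate 2 list. Replicate 2 had fewer calls per site. Of 174868 such sites in CpG-richer tiles, 1228 (0.702%) were on the list of replicate 1 and 4246 (2.43%) on that of replicate 2. Both lists held 78 of them, or 6.35% and 1.84% of each. Whether these overlaps exceed those of unrelated lists was not tested. The strands were close: MC and CM made up 7.68% and 7.60% of calls in CpG-poor tiles of replicate 1 and 8.27% and 8.21% in replicate 2, and HC and CH 1.20% and 1.189%, and 0.929% and 0.929%.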

How the data were processed

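SCoTCH-seq libraries of 2 passages of E14 mESCs were analysed as replicates of 1 group. The authors filtered read pairs by adapter configuration with Cutadapt 4.6, aligned them to GRCm38 (mm10) with BSBolt, removed duplicates with Picard 3.1.1, and deposited for each replicate the counts of calls per CpG site and state, with sites under 5 calls, blacklisted regions and sites of multiple calling errors removed. The deposited percent values are count over depth, within 1e-06 percentage points in every row; neither is corrected by spike-ins.

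Counts were summed over tiles of 1 Mb, sequence contexts, annotations and genes, with levels as percentages. CpGs, GC content and sequences came from GRCm38.p6, on whose CpGs all 14075213 sites fell, and genes from GENCODE vM21. Promoters were 1 kb either side of a transcription start site. Python 3.11.15, NumPy 2.4.6, pandas 2.3.3, SciPy 1.17.1 and Matplotlib 3.10.9 were used. Over all sites the median depth was 10 calls in replicate 1 and 6 in replicate 2, which limits single sites and, in replicate 2, single genes.

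The 2 replicates form 1 group, so samples could not be tested against each other. Differences were tested within each replicate by a two-sided exact sign-flip permutation test over 19 autosomes (threshold 0.05), adjusted over all 44 tests by Benjamini-Hochberg, and called where both replicates passed in the same direction; the tests with an equal mix of contexts were adjusted over their own 14. In simulated data with no difference in MC/CM between the sets in replicate 2, 6.5% of 200 tests gave p under 0.05. The simulated calls were independent, with the same rates on every autosome. They held no variation between tiles, so this share does not cover such variation. Tile calls needed 500 calls in each replicate. Corrected levels solve 9 linear equations, with negative solutions set to 0. Their call rates come from duplex sites of at least 1000 calls, each assigned the state most often called there. Tiles named are the 5 highest and 5 lowest in hemimethylated share, ranked on the lower or the higher of the replicates, and the longest runs. Genes named, with 80% of their length in the tiles and 50 sites in each replicate, are the 10 longest, the 5 highest and 5 lowest in hemimethylated share and the 5 highest in HC/CH. Families were taken by symbol prefix. The 2 example windows in unmasked sequence were chosen after the data had been seen, and that of a further kind of site is not reported here. The tiles, lists and tests were chosen with earlier results of these data known. Chromosome X and Y and transcript levels were not analysed here.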

Additional observations from a re-analysis of the deposited data

How the results depend on the processing

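Of 267 alternative values, 259 kept their direction and their side of the threshold or, for counts of tiles, stayed close to the reported count. Some of these outcomes were fixed in advance. Leaving out a replicate could not change a called difference, since a call needed both replicates to pass. Every CpG-poor tile had at least 2915 calls in each replicate, so the minimum of 2000 calls removed none of them. The alternatives were a minimum of 10 calls per site, sites covered in both replicates only, levels corrected by own call rates, per-site means, equal weight per tile, tiles shifted by 500 kb, as many tiles with the fewest reference CpGs, tiles with at least 60% of CpGs covered, the next class of tiles as comparison, a minimum of 2000 calls for tile calls, each replicate left out, and an equal mix of contexts, the last chosen after seeing the data. The exceptions follow, as means of the replicates in percentage points, and their cause was not tested. With correction, the HH difference of -0.0547 was not called, since HH was set to 0 in both sets of replicate 1. The tests over autosomes passed (largest adjusted p = 0.0344, exact sign-flip permutation test). With the tiles of fewest reference CpGs, the MC/CM difference between gene bodies and intergenic DNA, which passed in neither case, turned to 0.00479. With at least 60% covered, the hemimethylated share at solo WCGW sites passed as lower in CpG-poor tiles (-0.383), and the HM/MH difference between gene bodies and intergenic DNA did not pass (0.0581). Against the next class of tiles, up to 5500 sites, CC did not pass (-0.00395), the share at solo WCGW sites passed (-0.360), and the share in intergenic DNA reversed (-0.0178). With an equal mix of contexts, the hemimethylated share reversed (-0.452). No paired analysis was possible because both samples belong to 1 group. Depth limits replicate 2, at 6.31 calls per covered site of the tiles.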
